A study of Zea mays with 4 samples.

Results

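The linker histone H1 family was represented by 4 genes of the 48174 in the deposited count table, chosen by NCBI gene number and named in the gene table of maize assembly Zm-B73-REFERENCE-NAM-5.0: hon110 (GeneID:100382582), hon102 (GeneID:541964, also listed as his1a), his1 (GeneID:542385) and hon101 (GeneID:541973). No protein or genome sequence was used, so their assignment to the family rests on these names. No other gene of the table carried the name hon or his1 alone or followed only by digits. Other forms of name were not searched, so the family may hold further genes.

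Total cellular RNA was sequenced from 4 biological replicates of a single group. Each was a pool of primary and seminal root tips, cut to 1 mm, from seedlings of the maize inbred line B73. The seedlings were 3 days old, germinated at 28 °C in continuous light, and spent 2 h in swirled, aerated water at 28 °C before the tips were cut. Primary and seminal roots therefore share every value, and no seedlings without the water incubation were analysed here. The comparisons are between the 4 genes, between the 4 libraries and between the family and other chromatin genes.

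Linker histone H1 binds the nucleosome where the DNA enters and leaves it and the linker DNA between nucleosomes. A folded central domain makes the contact, and a long lysine-rich tail neutralises the charge of the linker DNA, so that H1 favours compact chromatin. The core histones H2A, H2B, H3 and H4 form the protein spool on which the DNA is wrapped. In growing tissue new histones are needed when DNA is replicated, and the root tip holds the meristem, where cells divide. HMG box proteins also bind linker DNA and are known in animal cells to compete with H1 for it. In Arabidopsis, H1 is a small family of main variants and a variant induced by stress. Whether a maize gene corresponds to the stress variant is not taken up here.

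The libraries held 23385589 to 26829395 counts. A count of 0 allowed a level of up to 0.112 to 0.128 CPM (counts scaled to 1000000 per library), taken as 3 counts, a limit that covers counting error only. The values are estimated counts, and 5.17% to 5.64% of nonzero values departed from a whole number by more than 0.001. Of the 16 linker histone values 1 did so, the 6343.5 counts of his1 in replicate 4. No other gene in the gene table overlapped the span of any of the 4. The stem cell and auxin transport genes SCR (40.3 ± 2.7 CPM) and PIN1a (197 ± 8.15 CPM, SD, n = 4) were detected, as were all 3 S-phase genes tried. The names scr1 and wox5, also searched as root tip markers, gave no further gene. The 3 leaf genes summed to between 0.421 and 0.866 CPM, with 1 of them at 0, and the 41 zein seed storage genes to between 0.257 and 0.522 CPM, with 40 of them at 0. Every pair of libraries differed in 1640 to 4034 genes beyond counting error, so no library was a copy of another. The labels call the samples biological replicates without saying whether seed batches were separate. The p-values therefore cover only these samples, whose differences may be technical. Those of the chi-square tests are set against counting error, not against the spread between samples.

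All 4 linker histone genes were abundant. Detection at 1 CPM in every library held for 43.5% of the genes in the table and for 4 of 4 linker histone genes. Together they took 0.148%, 0.159%, 0.167% and 0.150% of all counts in replicates 1 to 4, or 1560 ± 86.4 CPM (SD, n = 4). The family was highest in replicate 3 and lowest in replicate 1, a ratio of 1.13 between these libraries.

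The gene with most linker histone reads was hon110. It had 523.6, 544.7, 585.1 and 549.9 CPM in replicates 1 to 4, a mean of 551 ± 25.5 CPM (SD, n = 4), from 12860 to 15697 counts per library. Replicate 3 was highest and replicate 1 lowest, with replicates 2 and 4 close together between them. By mean CPM hon110 was gene 156 of the table, above 99.26% of the detected genes, and its rank ran from 143 to 173 over the libraries.

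The gene hon102 had 496.2, 517.4, 542.9 and 480.9 CPM in replicates 1 to 4, a mean of 509 ± 26.9 CPM (SD, n = 4). Its highest library was again replicate 3, but its lowest was replicate 4. It was gene 186 by mean CPM, with ranks of 159 to 207.

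The gene his1, which carries the name H1 in the gene table, had 268.1, 301.3, 309.0 and 271.3 CPM in replicates 1 to 4, a mean of 287 ± 20.7 CPM (SD, n = 4). Replicates 2 and 3 lay together above replicates 1 and 4. It was gene 499 by mean CPM, with ranks of 450 to 547.

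The gene hon101 had the fewest reads of the family, with 192.0, 227.6, 230.7 and 199.2 CPM in replicates 1 to 4 and a mean of 212 ± 19.6 CPM (SD, n = 4). It fell into the same pairs of libraries as his1, replicates 2 and 3 above replicates 1 and 4. It was gene 769 by mean CPM, above 96.33% of the detected genes, with ranks of 676 to 900.

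**Figure D1:**
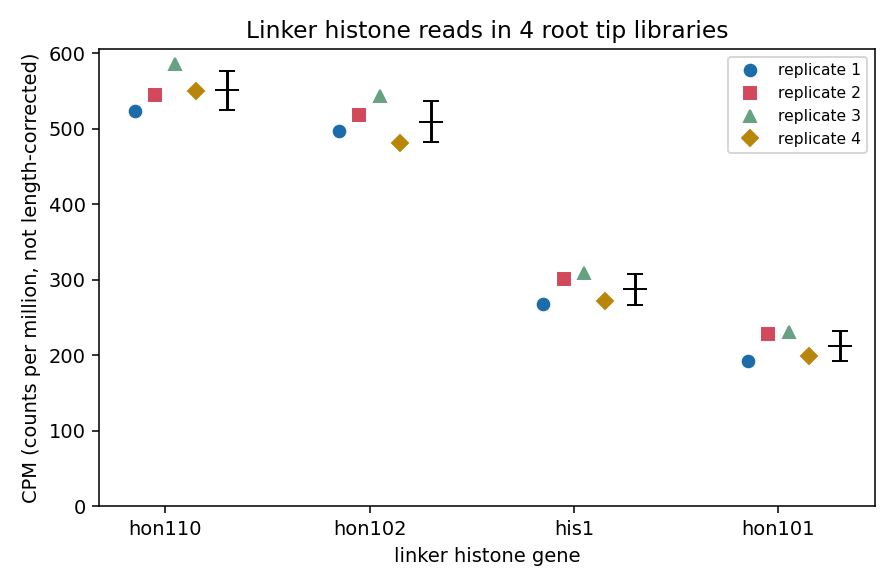
CPM of the 4 linker histone genes in each library, not corrected for transcript length. Coloured points are the replicates and the black marks the mean with 1 SD (n = 4). The ranges of hon110 (523.6 to 585.1 CPM) and hon102 (480.9 to 542.9 CPM) overlap, while his1 and hon101 lie in ranges of their own.

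In read counts the order hon110, hon102, his1, hon101 was the same in 4 of 4 libraries. Longer transcripts give more reads, and without exon lengths of the annotation used for counting these differences in reads are not differences in transcript number. The order of hon110 and hon102 was the narrowest step: hon110 had 1.06, 1.05, 1.08 and 1.14 times the reads of hon102 in replicates 1 to 4, a mean log2 ratio of 0.113 ± 0.056 (SD, n = 4). Across libraries the ranges of these genes in CPM overlapped, and they were ordered only when compared within a library. The log2 ratio of reads was 0.827 ± 0.045 for hon102 over his1 and 0.438 ± 0.033 for his1 over hon101 (SD, n = 4), and in CPM neither pair overlapped across libraries. Between the extremes, hon110 had 2.73, 2.39, 2.54 and 2.76 times the reads of hon101 in replicates 1 to 4. All 6 pairwise ratios kept their sign in 4 of 4 libraries, and for each a permutation test (exact, two-sided, flipping signs over libraries) gave p = 0.125 (adjusted p = 0.125 over the 6 pairs), the smallest that 4 libraries can give, so no pair could pass 0.05.

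As shares of the linker histone counts, hon110 took 35.4%, 34.2%, 35.1% and 36.6% in replicates 1 to 4 and hon102 took 33.5%, 32.5%, 32.6% and 32.0%. Both together held 67.99 ± 0.991% (SD, n = 4). The share of his1 was 18.1%, 18.9%, 18.5% and 18.1%, and that of hon101 was 13.0%, 14.3%, 13.8% and 13.3%. The mean shares were 35.3 ± 0.993%, 32.7 ± 0.626%, 18.4 ± 0.407% and 13.6 ± 0.593% for hon110, hon102, his1 and hon101 (SD, n = 4). Shares of reads carry the same limit on transcript length as the ratios. How the ratio of a pair of genes changes between libraries does not depend on length, whereas a change in share does.

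**Figure D2:**
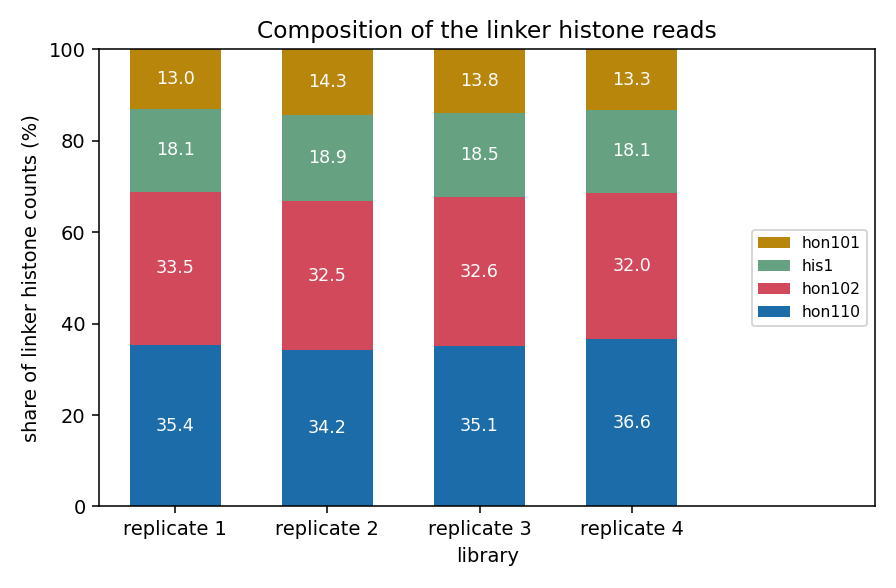
Share of the summed linker histone counts held by each of the 4 genes, in percent, for each library (1 bar per replicate, numbers are the shares). The division of the family is close to constant, with the share of hon110 between 34.2% and 36.6% and that of hon101 between 13.0% and 14.3%.

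The division of the family was close to constant, and its small changes exceeded counting error. A chi-square test of the 4 genes by 4 libraries on rounded counts gave 84.2 on 9 degrees of freedom (p = 2.33e-14), a test that compares these libraries and takes reads as independent. Against equal shares in all libraries, hon101 departed most: it stood at -4.67% from its count at equal shares in replicate 1 and at 5.1% in replicate 2. In replicate 4, hon110 stood at 3.79% and hon102 at -1.95%. The pair his1 and hon101 held the steadiest ratio, 1.40, 1.32, 1.34 and 1.36 in replicates 1 to 4. It was the 1 pair of 6 whose ratio was not found to differ between libraries beyond counting error (chi-square p = 0.182, adjusted p = 0.182 over the 6 pairs). These genes had the fewest reads, so the test could detect least for this pair. Its counting error was the largest, 0.026 in log2 against 0.018 for hon110 over hon102. For the other 5 pairs the adjusted chi-square p ran from 4.66e-10 for hon110 over hon101 to 0.00439 for hon102 over his1. The SD of the log2 ratio between replicates was 0.033 for his1 over hon101, against 0.026 for counting error alone, and 0.096 for hon110 over hon101, against 0.023.

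The members with fewer reads had the wider spread between replicates, an order that was not tested. The coefficient of variation of CPM was 9.24% for hon101, 7.22% for his1, 5.29% for hon102 and 4.63% for hon110, where counting error alone gives 1.37%, 1.18%, 0.883% and 0.849%. The medians of genes of like abundance were nearly level: among genes within 2-fold of each member in mean CPM the median coefficient of variation was 3.93% for hon101, 3.93% for his1, 3.99% for hon102 and 3.90% for hon110. Of those genes, 94.1% varied less than hon101, 86.4% less than his1, 72.1% less than hon102 and 61.7% less than hon110. These percentages describe the 4 libraries and are not a test.

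All 4 genes varied beyond counting error in a chi-square test of their counts against the library totals, adjusted by Benjamini-Hochberg over 22752 genes. The adjusted p was 6.56e-28 for hon101, 8.44e-23 for his1, 1.8e-21 for hon102 and 1.78e-18 for hon110. That call was common: 26.0% of all genes tested passed it, and 71.2% of the 2202 genes with 100 CPM or more, since high counts reveal a smaller spread. None of the 4 was called as varying more than other genes of its abundance. There the quasi-likelihood dispersion of each gene in edgeR was tested against the abundance trend, which called 9 of 22752 genes (0.0396%). These totals depended on the libraries and genes used: without replicate 3 the chi-square test called 13.4% of genes and the edgeR test 100 genes, the edgeR test called 2 genes without replicate 2 and 3 without replicate 4, and it called 494 where every gene with a count was tested. No linker histone gene was among the edgeR calls in any of these. With so few libraries and adjustment over so many genes, the edgeR test can miss a modest excess. A gene not called is thus not shown to have the spread usual at its abundance. The edgeR adjusted p was 0.743 for hon101, 0.944 for his1, 0.994 for hon102 and 0.994 for hon110. The edgeR test held 1352 genes at an unadjusted p below 0.05, hon101 among them. DESeq2 marked 174 genes as dispersion outliers, a flag without a p-value, and no linker histone gene was among them. The dispersion of hon101 was above its trend by 2.31 on the log2 scale, that of his1 by 1.62, that of hon102 by 0.72 and that of hon110 by 0.48, against a median of -0.22 over all genes tested. Relative to the trend, 96.3% of tested genes lay below hon101, 91% below his1, 75.8% below hon102 and 69.8% below hon110.

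The members shared their highest library. All 4 were highest in replicate 3, as were 25.9% of detected genes: hon101 by 8.62% over its mean of 4 libraries, his1 by 7.50%, hon102 by 6.59% and hon110 by 6.22%. In replicate 1 all 4 lay below their means, hon101 at -9.58%, his1 at -6.72%, hon110 at -4.94% and hon102 at -2.59%. In replicates 2 and 4 the genes parted. Replicate 2 was above the mean for hon101 (7.18%), his1 (4.84%) and hon102 (1.59%) and below it for hon110 (-1.12%). Replicate 4 was below the mean by a similar amount for hon101 (-6.21%), his1 (-5.62%) and hon102 (-5.59%) and at the mean for hon110 (-0.164%). Thus 3 of the 4 genes, but not hon110, had both replicates 1 and 4 below both replicates 2 and 3, an arrangement picked after the values were seen that 17.8% of detected genes also had. No correlation between genes is given, since 4 libraries are too few for one.

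**Figure D3:**
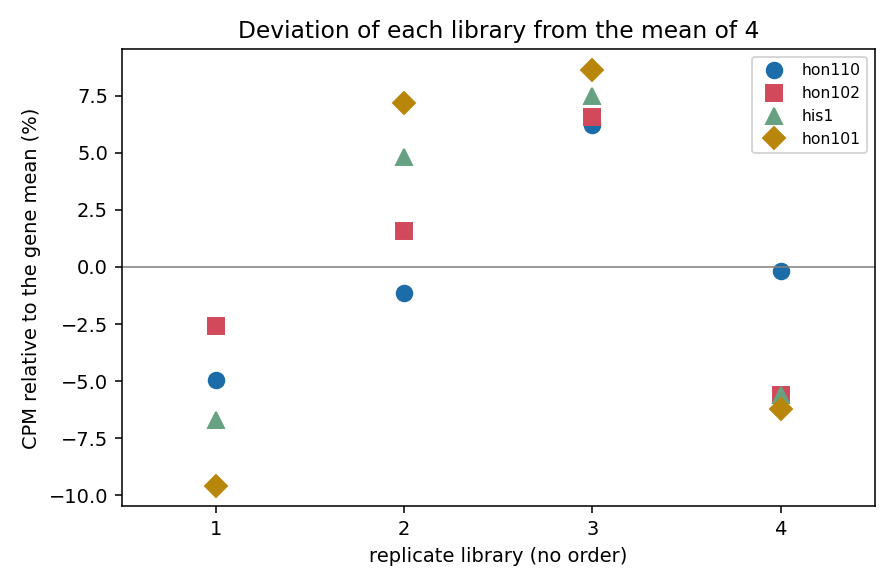
CPM of each linker histone gene in each library, in percent of the gene's mean over 4 libraries (0 is the mean). All 4 genes are above their means in replicate 3 (6.22% to 8.62%) and below them in replicate 1, and hon110 parts from the others in replicates 2 and 4.

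The 5 core histone genes that could be found by name were all detected, beside 43.5% of all genes in the table. They comprised his2a1, an H2A gene at 415 ± 18.7 CPM, his2b2 and his2b5, H2B genes at 426 ± 13.3 and 392 ± 10.5 CPM, an H4 gene listed as H4C13 at 171 ± 3.28 CPM and an H3 gene listed as H3C2 at 55.4 ± 1.81 CPM (SD, n = 4). The H3 and H4 entries each carry several gene names, and maize has many near-identical core histone genes, so this list is partial and its reads may be shared with copies. The family's 1480, 1591, 1668 and 1501 CPM in replicates 1 to 4 stood beside 1426, 1457, 1488 and 1469 CPM for these core genes. Linker over core reads were thus 1.04, 1.09, 1.12 and 1.02, a mean of 1.07 ± 0.046 (SD, n = 4), highest in replicate 3 and lowest in replicate 4. The coefficient of variation of the summed CPM was 5.54% for the linker genes and 1.77% for the core genes. Of the core genes 3 of 5 varied beyond counting error, beside 71.2% of all genes with 100 CPM or more, and 0 of 5 varied beyond genes of their abundance (edgeR), a call that 0.0396% of tested genes received.

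Most other chromatin genes were not highest in replicate 3. Of 61 detected genes in the remaining chromatin lists and the core list, 6 were highest in replicate 3 and 28 were lowest there, against 25.9% and 31.0% of detected genes. In summed CPM the family lay 6.90% above its mean in replicate 3 and the core histones 1.89% above theirs. The HMG box genes lay at -3.74% and the nucleosome assembly genes at -4.60%. The other chromatin lists were also below their means there. Remodelling genes lay at -5.93%, SET domain genes at -4.2%, deacetylases and acetyltransferases at -3.88% and DNA methylation genes at -3.19%. The products of the S-phase genes RNRL1, MCM6 and pcna1 make deoxynucleotides and act at the replication fork. The sum of these genes lay at -5.67% in replicate 3 and at 5.80% in replicate 1, where the linker histones lay at -5.13%. In replicate 3, MCM6 (110.0 CPM, mean 124) and pcna1 (112.1 CPM, mean 124) were lowest. RNRL1 was near its mean there (242.5 CPM, mean 245) and lowest in replicate 4 (232.1 CPM). These shifts between single libraries were not tested against each other. In bulk tissue, fewer cells of a kind and less RNA per cell cannot be told apart, and how the mix of cells differed between the libraries was not tested.

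**Figure D4:**
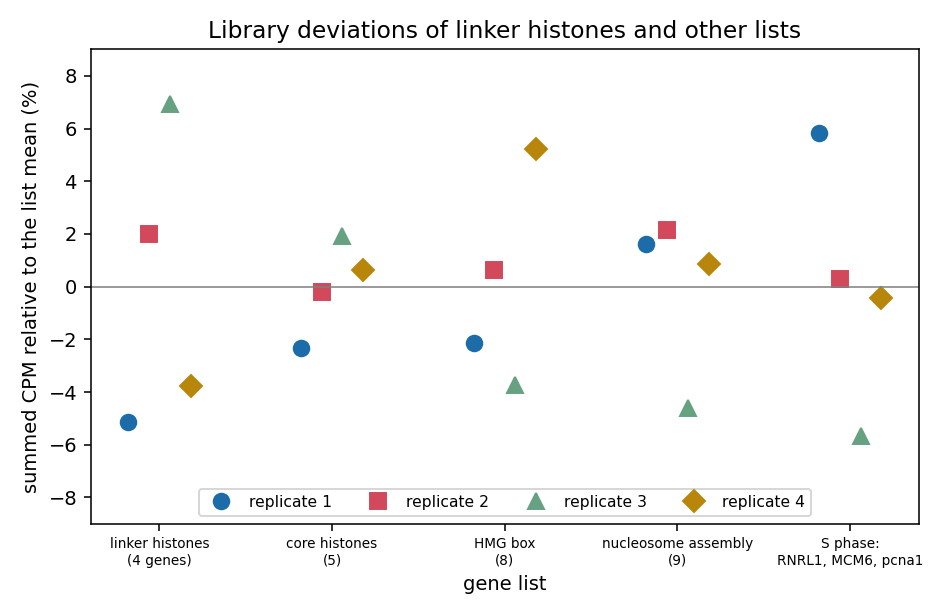
Summed CPM of the linker histones and of 4 other lists in each library, in percent of the list's own mean over 4 libraries (0 is the mean, numbers of genes in brackets). Replicate 3 is the highest library for the linker histones (6.90%) and the core histones (1.89%) and the lowest for HMG box genes (-3.74%), nucleosome assembly genes (-4.60%) and the S-phase genes (-5.67%). The chromatin lists not shown also lay below their means in replicate 3 (-5.93% to -3.19%).

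The HMG box list held 8 genes, all detected (beside 43.5% of all genes in the table), summing to 1004 ± 39.4 CPM (SD, n = 4). It was led by HMG13, the MNB1B gene for a nucleosome-binding HMG protein, at 483.4, 509.6, 507.2 and 550.3 CPM in replicates 1 to 4, and by nfd101 at 104 ± 3.65 CPM. HMG13 was highest in replicate 4, where hon102, his1 and hon101 were below their means, and lowest in replicate 1, where all 4 linker histone genes were below theirs. The nucleosome assembly list held 9 genes, all detected, and was led by nfa101 at 206 ± 5.30 CPM and a gene listed as Nap1 at 159 ± 2.08 CPM (SD, n = 4), a name that more than one kind of protein bears. Beyond counting error, 4 of 8 HMG box and 5 of 9 nucleosome assembly genes varied, beside 26.0% of all genes tested and 71.2% of those with 100 CPM or more. None of either list was among the 0.0396% of genes that varied beyond others of their abundance by the edgeR test.

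The genes closest to each linker histone gene in log2 CPM over the 4 libraries, by Euclidean distance, did not carry the names hon or his1. The nearest to hon110 were LOC100286204 (distance 0.071) and LOC100193695 (0.089), at 542.0 ± 29.9 and 539.2 ± 22.9 CPM, SD, n = 4. For hon102 they were LOC103647713 (0.091) and LOC541793 (0.093, listed as Bk2L3), and for his1 LOC100282761 (0.079) and LOC542258 (0.111, listed as PAL1). For hon101, whose spread was widest, the nearest were farther off, LOC100384368 (0.136) and LOC100501392 (0.142). Within the family the closest pair was hon110 and hon102, at 0.246. With 4 libraries of a single group this distance mostly reflects level.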

How the data were processed

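The authors deposited estimated counts per NCBI gene number for 4 libraries, not normalized, in a joint table and in per-sample tables with the same values. Per the labels' protocols, TRIzol-extracted, DNase-treated RNA (1 µg) went into stranded libraries with molecular tags and removal of plant ribosomal RNA. The tools, per the submitters' processing notes, were HTSeq, STAR 2.7.10b, UMI-tools, Trimmomatic 0.36 and 0.39, deepTools and SAMtools. Not given in the sources used here are their parameters, the genome build, the annotation and whether strand entered the counting. Of 48174 genes, 48127 matched the gene table, used only for names and overlaps.

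CPM used library totals (23385589 to 26829395 counts), which bounds precision to counting error plus replicate spread. Counts were rounded for models. Genes were filtered with filterByExpr (22752 kept) and TMM-scaled in edgeR 4.0.16 (R 4.3.3), with DESeq2 1.42.0 as an alternative. The quasi-likelihood dispersion of each gene was tested by an upper-tail F test with the prior degrees of freedom of the bulk of genes, adopted after those of each gene had given 0 calls. Both tests of spread used an adjusted p of 0.05 and were tested on simulated data. Ratios and shares were tested in SciPy 1.17.1. The design was to divide reads by transcript length and to describe protein and promoter sequences. No lengths or sequences were used here, so ratios are of reads. Chromatin lists and markers were found by gene name. Named genes are the 4 members, the 2 nearest genes to each by log2 CPM and the 2 highest of each list. Others were chosen after their values were seen. The members and lists were chosen with earlier results of these data known.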

Additional observations from a re-analysis of the deposited data

How the results depend on the processing

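The 78 recomputed values were levels, shares and read ratios of the 4 linker histone genes. The settings were TMM and DESeq2 scaling, the total of protein-coding genes, rounded values, a pseudocount of 0.5 and each replicate left out. Levels and shares stayed within 1 SD and ratios kept their sign. With a replicate left out this outcome was fixed beforehand. A mean of 4 libraries cannot then move by 1 SD, and ratios of the same sign in every library cannot reverse. At counts of this size, rounding or the pseudocount could not change the outcome either. Only the changes of scaling could have done so. The mean level of hon110 ran from 539.4 to 572.1 CPM and that of hon101 from 206.3 to 220.6 CPM. The family's composition differed between libraries with any replicate left out (chi-square p of 2.54e-15 to 1.69e-07). All 4 genes stayed beyond counting error under every alternative run, the weakest being hon110 without replicate 3 (adjusted p = 0.00188), and none passed the edgeR test of spread beyond genes of its abundance, the lowest adjusted p being 0.198 for hon101 where every gene with a count was tested.

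Genes varying beyond counting error numbered 5919, and 3063 to 5229 with a replicate left out, lowest without replicate 3. Genes varying beyond others of their abundance by edgeR numbered 9, and 494 where every gene with a count was tested and 2 under a non-robust prior. They numbered 2 to 100 when 1 replicate was dropped (2 without replicate 2, 100 without replicate 3, 3 without replicate 4). DESeq2 flagged 174 genes as dispersion outliers, a flag without a p-value, so that count is not of the same measure. The robust prior was first run with the lowered degrees of freedom that it gives variable genes, and edgeR then called 0 genes, with 931 at an unadjusted p below 0.05. The degrees of freedom of the bulk of genes, behind the count of 9, were adopted after that 0 was seen. The cause was not tested. The linker over core ratio of 1.07 was 1.51 without his2b2, the core gene with most counts, because the sum then holds fewer genes, and 1.05 to 1.08 with a replicate left out, alternatives also added later. Ratios and shares per transcript length were not run. No paired analysis was possible because there is a single group.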

Other observations

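The other chromatin lists held enzymes and readers of histone and DNA marks. Plant-specific histone deacetylase genes gave most reads of their list, HDT1 with 646.1, 630.8, 640.1 and 681.2 CPM in replicates 1 to 4 and hdt102 with 409.7, 400.6, 362.5 and 411.3 CPM. Of the 13 deacetylase and acetyltransferase genes 12 were detected, beside 43.5% of all genes in the table, and 4 of the 12 tested varied beyond counting error, beside 26.0% of all genes tested. In the DNA methylation list 14 of 15 genes were detected, led by dmt101, a DNA methyltransferase gene, at 117 ± 5.26 CPM and DMT105 at 85.6 ± 5.29 CPM (SD, n = 4). Of the SET domain genes, which include histone methyltransferases, all 9 were detected, led by sdg101 at 88.7 ± 1.19 CPM and mez1, of the Polycomb type, at 71.8 ± 3.93 CPM (SD, n = 4). The 4 chromatin remodelling genes, led by chr122 at 51.4 ± 3.19 CPM and chr111 at 31.5 ± 2.13 CPM (SD, n = 4), were all detected.

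The median of reads, not corrected for length, was 398 CPM over the 4 linker histones, 392 CPM over the 5 core histones, 86.2 CPM over the HMG box genes and 73.8 CPM over the nucleosome assembly genes, against 0.301 CPM over all genes of the table. None of the 16 linker histone values tried by Dixon's criterion (levels, shares, ratios and the family total) had a library apart from the others, the largest gap to range being 0.714, under the critical value.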
